A study of Homo sapiens with 18 samples.

Results

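Histone H3 trimethylated at lysine 4 (H3K4me3) marks the starts of active genes, where it forms broad and tall peaks, and weaker, narrower peaks of the same mark also occur inside genes and at distal sites. H3K27me3, laid down by the Polycomb complex PRC2, marks repressed genes, and a region that carries both marks is called bivalent. The regions described here are those where an H3K4me3 peak was called in control cells and not in cells that overexpress the long noncoding RNA H19, an imprinted transcript that is high in fetal tissue and largely silenced after birth.

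The cells were V16D, a castration-resistant prostate cancer line derived from LNCaP, transduced either with a control lentivector (V16D/CTL) or with a lentivector in which a CMV promoter drives H19 (V16D/H19). Both groups were therefore transduced with a lentivector, and H19 was driven by a viral promoter in a single cell line. Each group had 3 replicates, and chromatin of each replicate was immunoprecipitated for H3K4me3 and for H3K27me3 beside its own input. Both groups were grown in the same serum-containing medium, and no drug or hormone treatment set them apart. The replicates are biological triplicates of a single line, so the p-values cover the spread between these libraries and not between lines.

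Peaks of the 6 H3K4me3 lists were merged wherever they shared at least 1 base, which gave 25373 regions, of which 20708 had a peak in at least 2 lists and 15811 in all 6. A region was kept where at least 2 of the 3 V16D/CTL lists held a peak and none of the 3 V16D/H19 lists did. This left 408 control-only regions, 1.97% of the 20708, and 85 of them (0.41%) had a peak in all 3 V16D/CTL lists. The mirror rule gave 799 regions called only in V16D/H19 (3.86%). The count depends on the lists used: it was 142 when V16D/CTL peaks had to reach a −log10 q of 5, and without V16D/CTL replicate 1, 2 or 3 it was 181, 218 and 190, since the rule then asks both remaining lists for a peak. Without V16D/H19 replicate 1 or 2 it was 680 and 687, and without replicate 3 it was 527. For regions in all 3 V16D/CTL lists, leaving out V16D/H19 replicate 1 or 2 gave 170 and 192 in place of 85. The control-only regions were selected on these H3K4me3 calls, so their H3K4me3 values are given as a description without a test.

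The luminal identity of the cells could be read from the lists. All 7 luminal markers examined (KRT8, KRT18, KLK2, KLK3, TMPRSS2, HOXB13, FOXA1) had an H3K4me3 peak within 1000 bases of a start in all 6 lists. The basal markers KRT5, KRT14 and TP63, the 3 immune markers and the endothelial marker VWF had none in any list. Of the 4 fibroblast markers, COL1A1 had a promoter peak in all 6 lists, and COL1A2, DCN and LUM had none. Of the 5 neuroendocrine (NE) markers, SYP and ENO2 had a peak in all 6 lists and CHGA in none. CHGB had one in 0 V16D/CTL and 2 V16D/H19 lists, and NCAM1 in 1 and 2. None of these markers was the nearest gene of a control-only region at a promoter. Each H3K4me3 list of V16D/CTL held 20094 to 21168 peaks and each list of V16D/H19 held 20048 to 21934. The depth behind them was not analysed here. No H3K4me3 list held a peak within 1000 bases of the H19 gene, so the peak lists give no check of the overexpression.

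Promoter sequence is shown for 4 genes whose start lay within 1000 bases of a control-only region, because these regions ranged from CpG-rich to AT-rich starts. Each line gives the 250 bases before the RefSeq start (GRCh38.p14), read 5′ to 3′ on the strand of the gene, with capitals marking matches to GGGCGG (the GC box), CCAAT (the box bound by NF-Y), TATAAA (the TATA box), CACGTG (the E-box) or AGAACA (a steroid receptor half-site) on either strand. SCARF2 encodes a scavenger receptor and lies on the minus strand (chr22:20437826-20438075), and 246 of the bases shown fall in the control-only region. UGT2B11 encodes an enzyme that conjugates small molecules to glucuronic acid (chr4:69214749-69214998, minus strand). SUZ12 encodes a core subunit of PRC2 (chr17:31936757-31937006, plus strand), and 17 of its bases shown fall in the region. KIAA1217 encodes the sickle tail protein homolog (chr10:23694477-23694726, plus strand). For UGT2B11 and KIAA1217 none of the bases shown fall in the region, which lay 300 and 158 bases from the start.
SCARF2: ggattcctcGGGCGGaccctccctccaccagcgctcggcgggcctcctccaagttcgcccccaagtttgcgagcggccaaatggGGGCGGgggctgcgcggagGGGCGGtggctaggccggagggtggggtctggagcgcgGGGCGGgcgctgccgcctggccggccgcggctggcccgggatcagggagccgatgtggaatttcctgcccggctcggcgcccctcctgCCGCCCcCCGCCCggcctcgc
UGT2B11: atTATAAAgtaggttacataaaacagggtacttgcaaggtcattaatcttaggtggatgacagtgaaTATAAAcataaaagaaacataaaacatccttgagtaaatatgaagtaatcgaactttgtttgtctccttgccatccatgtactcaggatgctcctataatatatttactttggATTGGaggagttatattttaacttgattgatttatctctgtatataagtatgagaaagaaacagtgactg
SUZ12: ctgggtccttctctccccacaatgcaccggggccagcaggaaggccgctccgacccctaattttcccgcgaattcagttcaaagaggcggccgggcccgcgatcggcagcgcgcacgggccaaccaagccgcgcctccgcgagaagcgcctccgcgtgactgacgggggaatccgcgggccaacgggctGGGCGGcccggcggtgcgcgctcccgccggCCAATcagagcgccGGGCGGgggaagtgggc
KIAA1217: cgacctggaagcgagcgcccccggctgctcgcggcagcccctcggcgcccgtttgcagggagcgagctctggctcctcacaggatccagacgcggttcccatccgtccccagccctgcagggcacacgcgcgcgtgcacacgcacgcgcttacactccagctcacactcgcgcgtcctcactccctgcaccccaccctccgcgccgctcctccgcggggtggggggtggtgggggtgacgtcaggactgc

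The SCARF2 stretch was 77.6% G or C, and its CpG content was 0.798 of that expected from its base composition. It held 6 GC boxes, on both strands. The UGT2B11 stretch was 31.2% G or C with a CpG ratio of 0.17. It held 2 matches to the TATA box, 248 and 183 bases before the start, and 1 to the CCAAT box. SUZ12 had a CpG ratio of 1.03 with 2 GC boxes and 1 CCAAT box, and KIAA1217 a ratio of 0.894 with no match. A RefSeq window was found for 35 of the 42 genes nearest to a control-only region at a promoter. Over these 35 genes the median G or C share was 58.8% (28.4 to 79.2) and the median CpG ratio 0.62, beside 62% and 0.711 over all 22199 windows of protein-coding genes. A GC box occurred in 45.7% of the 35 and in 53.7% of all windows, a CCAAT box in 42.9% and 32.7%, a TATA box in 17.1% and 9%, an E-box in 2.86% and 7.37%, and the steroid receptor half-site in 17.1% and 9.84%. These are letter matches and not mapped binding sites.

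The control-only regions were low and narrow. The authors' fold over input, a linear ratio at the peak, had a median of 4.95 in V16D/CTL replicate 1 (2.62 to 9.91, 315 regions), 5.13 in replicate 2 (2.79 to 14.3, 279 regions) and 4.92 in replicate 3 (2.72 to 13.3, 307 regions). The medians of the complete lists were 27.2, 28.6 and 27.2. Only 10.8%, 10.3% and 11.1% of the peaks in each list were lower than the median of the control-only regions, so these regions sat in the lowest part of every list. Their median width was 378 bases (218 to 1445), against 2000 bases for regions called in all 6 lists, and together they covered 173 kb. The median −log10 q of their peaks was 5.32, 5.02 and 5.31, beside 94.1, 104 and 93.3 for the complete lists.

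**Figure D1:**
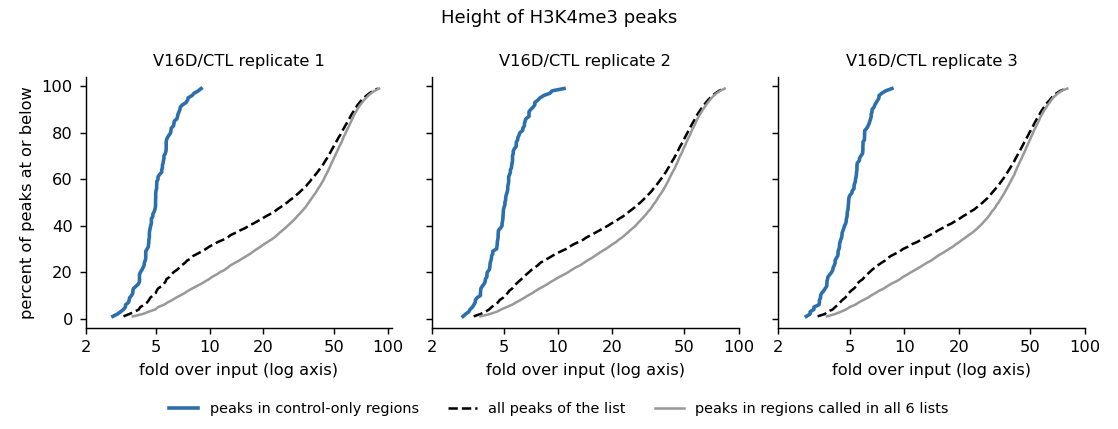
Cumulative percent of H3K4me3 peaks (vertical axis) against the authors' fold over input (horizontal log axis) in each V16D/CTL list, for peaks in control-only regions, all peaks of the list and peaks in regions called in all 6 lists. The control-only peaks centre on 4.95, 5.13 and 4.92, far to the left of the complete lists at 27.2, 28.6 and 27.2.

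Regions just inside and just outside the rule had similar values. Regions with peaks in 2 V16D/CTL lists and no V16D/H19 list (323) had a median fold of 4.95 and a median width of 358 bases, and the 85 with peaks in all 3 had 5.17 and 479 bases. Just outside, the 1762 regions called in a single V16D/CTL list had 4.67 and 244 bases. The 416 regions with 2 V16D/CTL peaks and 1 V16D/H19 peak had 5.26 and 446 bases, and the 221 with 3 and 1 had 5.54 and 520 bases. Regions called in all 6 lists stood apart, with a median fold of 39.4.

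The share of regions that lacked a V16D/H19 peak fell with the strength of the V16D/CTL peaks. Regions with a peak in at least 2 V16D/CTL lists were divided by the lowest −log10 q among those peaks, and intervals are 95% Wilson intervals that cover counting error over regions only. The rule used these same calls, so the shares are a description without a test. With a value under 3, 101 of 507 regions (19.9%, 16.7 to 23.6) had no V16D/H19 peak. The share was 14.5% (12.7 to 16.4) from 3 to 5, 5.69% (4.74 to 6.81) from 5 to 10, and 0.295% (0.115 to 0.757, 4 of 1354) from 10 to 20. At 20 and over it was 0 of 13164 regions, with an upper bound of 0.0292%. Each of these strong regions of the control cells thus had a peak in at least 1 V16D/H19 list. The mirror shares for regions of V16D/H19 without a V16D/CTL peak were 31.3%, 24.3%, 10.2%, 0.745% and 0.

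**Figure D2:**
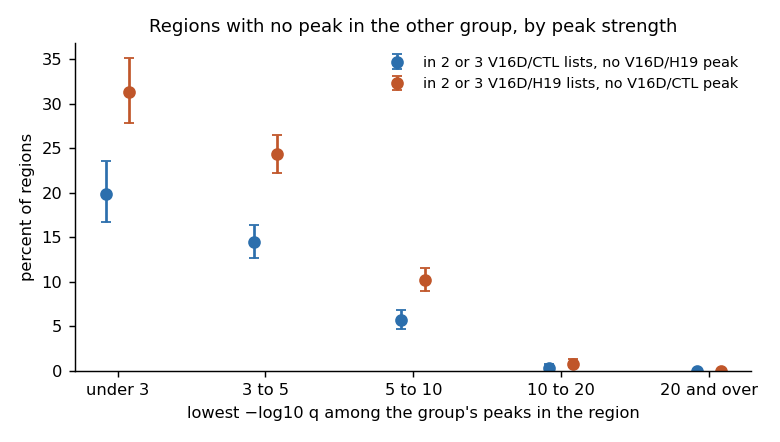
Percent of regions with peaks in 2 or 3 lists of a group (vertical axis) that had no peak in the other group, by the lowest −log10 q among the group's peaks (horizontal axis, 5 classes), with 95% Wilson intervals. In V16D/CTL the share goes from 19.9% in the weakest class to 0 in the strongest, and the V16D/H19 shares lie higher in the first 4 classes.

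The 12 regions in all 3 V16D/CTL lists with the highest lowest fold were named by rule. The highest lay inside AFF3, a nuclear protein of the AF4 family (chr2:100103500-100103828), with folds of 8.52, 7.97 and 7.84 in V16D/CTL replicates 1, 2 and 3. It was 99 bases from a V16D/H19 peak and 491 bases from a region called in all 6 lists, so it lay near a shared region. The region inside TNS1, which encodes the focal adhesion protein tensin 1 (chr2:217978600-217979108), had folds of 6.82, 9.03 and 8.2 and lay 30811 bases from the nearest V16D/H19 peak. It held a start of the noncoding gene TNS1-AS1. SCARF2 was the only one of the 12 that held the start of a protein-coding gene (chr22:20437142-20438071), with folds of 6.71, 14.3 and 13.3. Replicate 1 was the lowest of the 3 there, and the nearest V16D/H19 peak was 5440 bases away.

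The region in CCDC74B, which encodes a coiled-coil protein (chr2:130144367-130144707), had folds of 6.53, 7.44 and 7.24 and lay 231 bases from a region called in all 6 lists. CCDC74B has a close copy, CCDC74A, so reads of the 2 genes may not be told apart. The region in PRX, which encodes the myelin protein periaxin (chr19:40403695-40403992), had 7.03, 6.38 and 6.88. The region in UGT2B11 (chr4:69213926-69214448) had 6.25, 9.55 and 7.11 and a V16D/H19 peak 329 bases away, and UGT2B genes also have close copies. A region in FAM174B (chr15:92638568-92639353) had 6.04, 6.56 and 6.8 and was 276 bases from a V16D/H19 peak. The region in ZNF608, a zinc finger gene (chr5:124745523-124746662), had 7.01, 9.67 and 6.02, and the nearest V16D/H19 peak was 258810 bases away.

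The other 4 lay outside protein-coding genes. The nearest start was 168311 bases away at CARTPT, which encodes a neuropeptide (chr5:71887586-71887888, folds 9.52, 9.03 and 5.65). A region 6387 bases upstream of CDKN1C, which encodes a cyclin-dependent kinase inhibitor (chr11:2892162-2893110), had folds of 5.7, 12.1 and 5.63, with replicate 2 far above the others. It lay 809 bases from a region called in all 6 lists, and the authors annotated an overlapping site as a promoter of SLC22A18AS. The region lies in the imprinted cluster that also holds H19 and was the control-only region nearest to the H19 gene, at 891 kb. The last 2 were upstream of DEFB113, a defensin gene (chr6:49978518-49978812, folds 6.07, 5.6 and 6.03), and 78 bases from a region called in all 6 lists on chromosome 22 (chr22:15786111-15786444, folds 5.52, 6.91 and 7.24), where the nearest protein-coding gene is POTEH, of a family of near-identical copies.

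**Figure D3:**
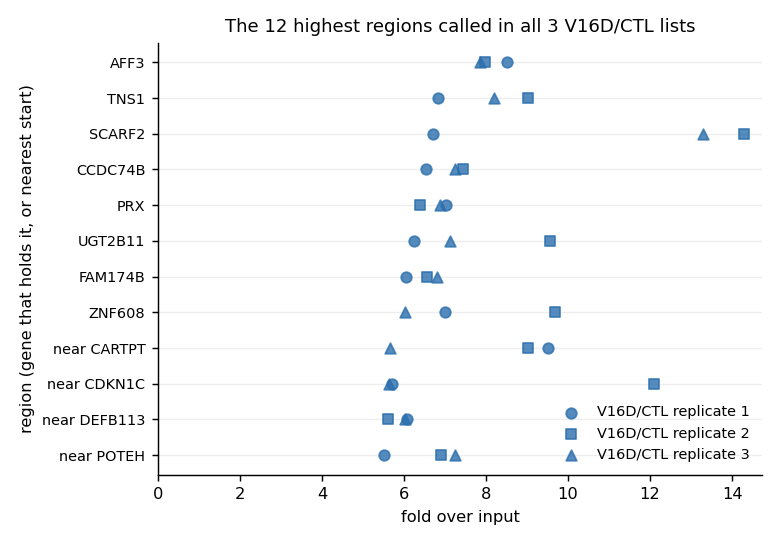
Fold over input (horizontal axis) in V16D/CTL replicates 1, 2 and 3 (circle, square, triangle) for the 12 control-only regions with the highest lowest fold among those in all 3 V16D/CTL lists, labelled by the gene that holds them or the nearest start. No V16D/H19 list held a peak in them, and the replicates lie closest for the region near DEFB113, from 5.6 to 6.07, and furthest apart for SCARF2, from 6.71 to 14.3.

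Few control-only regions were at promoters. Within 1000 bases of a protein-coding start lay 43 of them (10.5%), against 75.3% of regions called in all 6 lists and 19.9% of regions called only in V16D/H19. Just outside the rule, the share was 6.87% for regions called in a single V16D/CTL list. It was 11.3% with 2 V16D/CTL peaks and 1 V16D/H19 peak, and 18.6% with 3 and 1, so a low share was not particular to control-only regions. In all, 9 regions held a start, 187 lay in a gene but farther than 1000 bases from a start, and 186 lay outside protein-coding genes, of which 8 were within 1000 bases of a start and 1 was on a contig with no gene start. The median distance to a start was 21.4 kb, and 144 regions (35.3%) were over 50 kb away. Regions in all 3 lists were at promoters in 13 of 85 cases (15.3%), and those in 2 lists in 30 of 323 (9.29%). Over 13264 protein-coding genes with any H3K4me3 region at a start, 43 (0.324%) had a control-only region there.

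Some control-only regions lay close to a V16D/H19 peak, and whether V16D/CTL also had that peak was not checked. A V16D/H19 peak was called within 500 bases of 85 regions (20.8%) and within 1000 bases of 102, while 236 (57.8%) had none within 10000 bases. These distances were not taken for other classes of region. A region called in all 6 lists lay within 1000 bases of 58 control-only regions (14.2%), against 11.6% of the regions called only in V16D/H19. Within 5 kb the shares were 23.3% (95 regions) and 21.7%. At promoters, 15 of the 43 had a V16D/H19 peak within 500 bases and 20 had none within 10000 bases. SUZ12 is an example of the first kind. Its region (chr17:31936361-31936773) had folds of 5.68, 5.32 and 6.03 and was 154 bases from a region called in all 6 lists, and the SUZ12 pseudogene shares its sequence.

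Of the 13 promoter regions called in all 3 V16D/CTL lists, 4 more are given here. LNPEP, which encodes a membrane aminopeptidase (chr5:96958644-96959425), had folds of 6.27, 4.66 and 4.56, and ADCY4, an adenylyl cyclase (chr14:24333495-24334161), had 4.69, 7.83 and 4.52. CCDC80, a gene of a secreted matrix protein (chr3:112640476-112641022), had 4.91, 4.35 and 5.27. All 3 regions were over 20 kb from a region called in all 6 lists. GATA3, a transcription factor of luminal epithelia and T cells (chr10:8050229-8050837), had 4.02, 6.91 and 6.88, with replicate 1 the lowest, and lay 326 bases from a V16D/H19 peak and 2748 bases from a region called in all 6 lists. These 4 genes were named after their values were seen.

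The 12 promoter regions with the highest lowest fold included SCARF2, CCDC74B, UGT2B11 and SUZ12, described above, and 8 that had a peak in 2 V16D/CTL lists. KIAA1217 (chr10:23694885-23695242) had 6.58 in replicate 1 and 7.44 in replicate 2. ANKRD53, an ankyrin repeat gene (chr2:70977230-70977493), had 6.91 in replicate 2 and 6.56 in replicate 3, and MXRA7 (chr17:76710374-76710743) 5.88 and 7.66 in the same replicates. NOMO2 (chr16:18561073-18561403) had 7.53 in replicate 1 and 6.03 in replicate 3. GTF2IRD2 (chr7:74851801-74852025) had 5.68 in replicate 1 and 6.91 in replicate 2. NOMO2 and GTF2IRD2 lie in duplicated segments, so their reads may come from copies. CCDC185 (chr1:223393432-223393811) had 5.68 and 5.6 in replicates 1 and 2, and NWD1 (chr19:16720044-16720359) 5.68 and 5.37 in replicates 1 and 3. NEFM, which encodes the medium neurofilament protein of neurons (chr8:24914573-24914865), had 5.27 in replicate 2 and 5.22 in replicate 3.

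Of the luminal (8 genes), NE (19), basal (8) and EMT (14) lists, no gene had a control-only region within 1000 bases of its start, among 8, 16, 3 and 10 genes with any H3K4me3 region there. In the androgen target list, 1 of 24 genes with a region did (4.17%, beside 0.324% over all protein-coding genes). This was TRPM8, the cold and menthol channel (chr2:233952862-233953262), with folds of 4.96 in replicate 1 and 4.98 in replicate 2 and a V16D/H19 peak 564 bases away. The bodies of 5 of the 25 androgen targets (20%) held a control-only region, beside 219 of 19675 protein-coding genes (1.11%), with no correction for gene length and no test. Of the 19675, 13264 had any H3K4me3 region at a start, against 24 of the 25 androgen targets. By the same count the body share was 12.5% in the luminal list (ABCC4), 4.76% in the cell cycle list, 2.56% in the HOX list and 1.83% in the solute carrier list. It was 0 in the NE, basal and EMT lists. In ABCC4, which encodes a drug and cyclic nucleotide exporter, the region (chr13:95214936-95216162) had 5.52, 5.49 and 5.87 and a V16D/H19 peak 155 bases away. In ACSL3, a fatty acid activating enzyme, there were 2 regions (chr2:222875006-222875372 and chr2:222875992-222876568), each called in 2 lists. The nearest V16D/H19 peaks were 595 and 234 bases from them. STEAP1 and STEAP2, genes of membrane proteins of prostate epithelium, each held 1, with the nearest V16D/H19 peak 1894 and 11132 bases away. Of the other lists, HOX had 1 gene at a promoter (HOXA10, of 22 with a region). None had one in the interferon response (19), WNT (22), cell cycle (21), zinc finger (462), protocadherin (44), potassium channel (62), solute carrier (239), integrin (19) and collagen (23) lists.

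Control-only regions were spread over the genome. Chaining those within 10 kb gave 399 loci, and 8 loci held 2 or more. The locus with the most regions was on chromosome 21 (chr21:16357828-16361485), with 3 in 3.66 kb. Within EPHA6, a receptor tyrosine kinase of the ephrin family, 2 regions lay in 2.46 kb, and both were called in all 3 V16D/CTL lists. Their folds were 5.24, 5.98 and 5.87 (chr3:96822943-96824032) and 6.04, 5.66 and 2.72 (chr3:96824598-96825405). At SLITRK6, a neuronal membrane protein gene, 2 regions lay 88 and 611 bases inside the gene from its start. By chromosome, the share of regions that were control-only ran from 0.641% on chromosome 19 (9 of 1405) to 4.13% on chromosome 21 (10 of 242). Of these 10 on chromosome 21, 5 lay in the window from 16 to 17 Mb.

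The same measure was then read in libraries whose calls had not entered the choice. The bounds of the regions came from the merge of all 6 lists, so the lists left out still shaped them. Regions were chosen with a peak in 2 V16D/CTL lists and in neither of 2 V16D/H19 lists, and the share with a peak was taken in the remaining list of each group. Over the 9 ways to do so, which share libraries, 42.9% to 59% of the chosen regions had a peak in the V16D/CTL list left out, and 23.3% to 47.3% in the V16D/H19 list left out. The V16D/CTL share was higher in all 9, by 5.28 to 28.4 percentage points. The differences of 19.3, 23.4 and 28.4 points were those with V16D/H19 replicate 3 left out, whose list was the shortest of the 6 (20048 peaks). With V16D/H19 replicate 1 or 2 left out they were 5.28 to 13.9 points. In those cases 40.6% to 47.3% of the chosen regions had a peak in the V16D/H19 list left out.

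**Figure D4:**
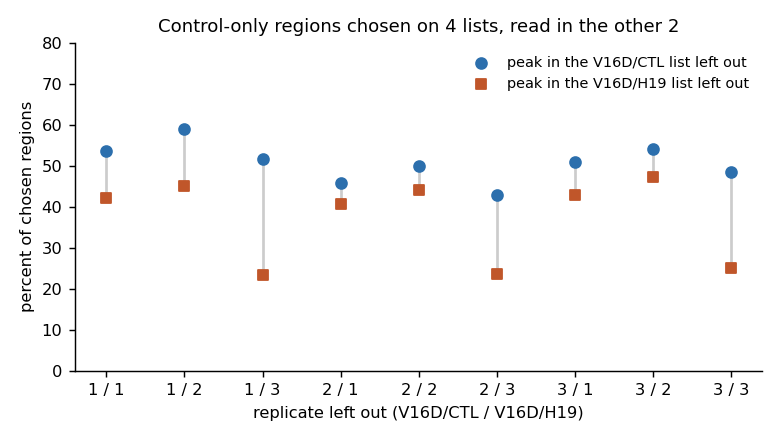
Percent of regions chosen as control-only on 4 lists (vertical axis) that had a peak in the V16D/CTL list (circles) and in the V16D/H19 list (squares) left out, for each of the 9 pairs of replicates left out (horizontal axis). The circles lie above the squares in all 9, and the squares drop to 23.3%, 23.6% and 25% where V16D/H19 replicate 3 was left out.

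H3K27me3 did not enter the rule, and it was rare at the control-only regions. Both marks of a replicate were called against the same input library, so the H3K27me3 calls are not fully independent of the selection. A peak of H3K27me3 shared a base with 11, 14 and 12 of the 408 regions in V16D/CTL replicates 1, 2 and 3, and with 7, 10 and 9 in V16D/H19. Every V16D/CTL library lay above every V16D/H19 library, but with the regions extended by 1000 bases on each side the difference in means was −1.33 regions (exact permutation p = 0.3). V16D/CTL averaged 12.3 ± 1.53 (SD, n = 3) against 8.67 ± 1.53 (SD, n = 3), a difference of −3.67 for V16D/H19 minus V16D/CTL (two-sided exact permutation p = 0.1, the smallest that 3 against 3 allows, which cannot pass a threshold of 0.05). H3K27me3 peaks covered 3634, 4981 and 4533 bases of these regions in V16D/CTL, against 2385, 3557 and 2690 in V16D/H19. Their means were 4383 ± 686 (SD, n = 3) and 2877 ± 608 (SD, n = 3), again without overlap (exact permutation p = 0.1).

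The same direction held at regions called in all 6 lists, with means of 1343 ± 111 and 1100 ± 37.8 regions that shared a base with an H3K27me3 peak (SD, n = 3 each, exact permutation p = 0.1). Nothing particular to the control-only regions is shown. Per library, 1.72% to 3.43% of them carried H3K27me3, against 6.68% to 8.96% of the regions called in all 6 lists and 17.1% to 19.4% of those called only in V16D/H19. In each of the 6 libraries the control-only share was the lowest of the 3 classes. The classes differ in median width (378, 2000 and 397 bases, in the same order) and in the share at promoters (10.5%, 75.3% and 19.9%). The shares with H3K27me3 were not adjusted for either. The H3K27me3 lists differed in length (55060 to 72289 peaks), and per 10000 list peaks the count of control-only regions was 1.89 ± 0.202 for V16D/CTL libraries, against 1.43 ± 0.185 for V16D/H19 libraries (SD, n = 3 each, exact permutation p = 0.1).

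**Figure D5:**
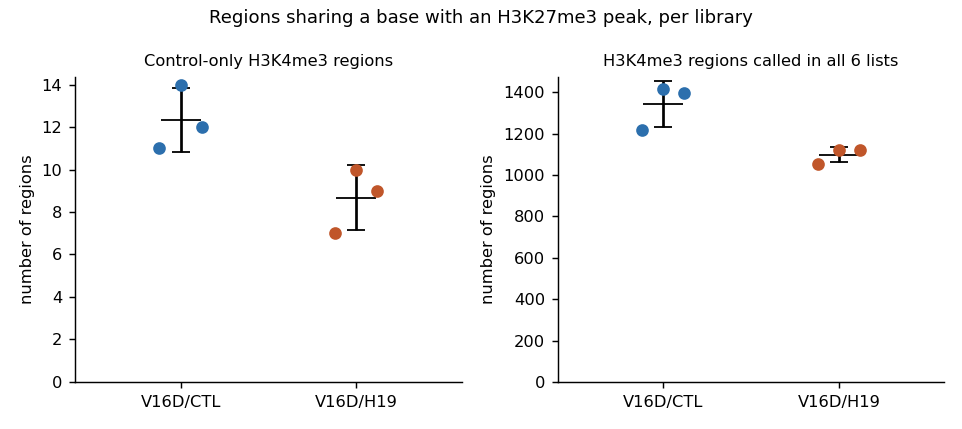
Number of regions that shared a base with an H3K27me3 peak (vertical axis) in each library (points), with the mean and SD (bars, n = 3), for the 408 control-only regions on the left and for the 15811 regions called in all 6 lists on the right. The V16D/CTL libraries sit at 11 to 14 and the V16D/H19 libraries at 7 to 10 on the left, and the groups do not overlap in either panel.

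Of the 408 regions, 17 had an H3K27me3 peak in any list and 6 in all 6 lists. Those in all 6 included the regions at the starts of GATA3, KIAA1217, FAM163A and C1QTNF4, so H3K27me3 was called in both groups where the H3K4me3 peak was called in V16D/CTL alone. Only 1 region had H3K27me3 in all 3 V16D/CTL lists and in no V16D/H19 list, beside 0.275% of the 20708 regions, and none had the reverse, beside 0.0338%.

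The authors' table of H3K4me3 sites gives a mean concentration per group, the log2 of the normalized read count. It lists sites chosen by the authors' own test, so it does not serve as independent evidence, and 1412 of its 1857 sites had the higher concentration in V16D/CTL. A listed site overlapped 75 control-only regions (18.4%), against 9.34% of the 20708 regions, and 38 of the 85 called in all 3 lists (44.7%). In all 75 the V16D/CTL concentration was the higher. Over the 73 sites its median was 4.37 (3.09 to 11.7), beside 2.29 (−0.2 to 11.4) in V16D/H19. For 38 regions the bounds equalled those of the site. For 26 regions the site was more than 2 times as wide as the region, so its concentration also counts reads beyond the region. Both of the next sites are among the wide ones (8.12 kb in ZNF608 for a region of 1.14 kb, and 3.06 kb in NR6A1 for 1.28 kb). In ZNF608 the site had 6.37 for V16D/CTL against 0.2 for V16D/H19, and in NR6A1, an orphan nuclear receptor gene, 5.27 and −0.2, the lowest value in that column. In NR6A1 the control-only region (chr9:124658389-124659668) had folds of 9.01, 5.87 and 3.16, so 1 replicate was far higher than another. This region was not at the NR6A1 start, which lay 111643 bases away. It held a start of the noncoding gene MIR181A2HG.

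For regions whose bounds equalled the site, UGT2B15, which conjugates androgens to glucuronic acid (chr4:68669453-68670285), had 4.78 for V16D/CTL against 1.94 for V16D/H19, and UGT2B11 had 4.14 and 0.79. LNPEP had 4.92 and 3.01. In SCARF2 and GATA3 the site was wider than the region. The SCARF2 site (1.32 kb for a region of 0.93 kb) had 5.3 and 2.72, and the GATA3 site (1.83 kb for 0.609 kb) 4.77 and 3.45. At the other end, the wide site in HSP90B1, an endoplasmic reticulum chaperone gene, had 10.65 and 10.39. Its region (chr12:103933676-103934609) was a stretch inside a site with H3K4me3 in both groups. A missing peak in V16D/H19 was therefore seen beside concentrations from −0.2 to 11.4, and it was not read as an absent mark.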

How the data were processed

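ChIP-seq of H3K4me3 and H3K27me3 was done in 3 V16D/CTL and 3 V16D/H19 replicates, and the 6 input libraries entered only as the authors' controls in peak calling. The authors called peaks per library with MACS2 against the input of the replicate (narrow for H3K4me3, broad for H3K27me3) on hg38, and compared groups with DiffBind and annotated sites with ChIPseeker. Versions are not given in the sources used here. For each peak the deposited lists hold the authors' score and fold (the ratio to input), with p-value and q-value written as −log10. The authors' deposited tables give log2 concentrations per group. Their fold, p-value and FDR columns hold the authors' comparison and were not used.

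Peaks were merged at 1 shared base. Gene starts were the 5′ ends of RefSeq genes (GRCh38.p14) and further starts of the promoter table. Strand came from RefSeq or, by symbol, from GENCODE, and was found for 19675 of 20037 protein-coding genes (98.2%). H3K27me3 counts per library were tested by two-sided exact permutation over the 20 assignments. Alternatives were a −log10 q of at least 5, lists of equal length, merging across 500 bases, coverage of the region, other distances and leaving out each library. Code ran in Python 3.11.15 with pandas 2.3.3 and scipy 1.17.1, and merging was tested on simulated data. Read depth was not analysed here.

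The members and the gene lists were chosen with earlier results of these data known. Named were the 12 regions in all 3 V16D/CTL lists and the 12 promoter regions with the highest lowest fold, genes of the luminal, NE, basal, EMT and androgen target lists with a region at the start, and regions with H3K27me3 in all lists of a single group, of which the only 1 is not reported here by name. Sequences are of genes of the second set.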

Additional observations from a re-analysis of the deposited data

How the results depend on the processing

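The count of 408 control-only regions was 142 when V16D/CTL peaks had to reach a −log10 q of at least 5 while every V16D/H19 peak was kept, and the count in all 3 lists went from 85 to 25, since fewer V16D/CTL peaks enter. Asking the same of every list gave 354 and 85, equal list length (20048 peaks) 499 and 110, merging across 500 bases 333 and 67, and a peak that covers most of the region 534 and 119. Leaving out 1 library gave 181 to 687 regions, and 120 to 218 for all lists of those left. The counts were below 408 without a V16D/CTL replicate (181, 218 and 190 without replicate 1, 2 and 3) and above it without a V16D/H19 replicate (680, 687 and 527), as the rule then asks both V16D/CTL lists left for a peak, or 1 list fewer to lack one. The share at promoters was 15% at 2500 bases, 17.9% with genes of any kind, 15.5% with the stricter V16D/CTL threshold and 15.3% for regions in all 3 lists. The share near a region called in all 6 lists was 16.9% at 2 kb and 31.6% at 10 kb.

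The differences in H3K27me3 stayed negative in all 20 alternatives. Leaving out 1 library gave −4.33 to −2.83 regions and −1880 to −1206 bases. With members extended by 1000 bases on each side the difference was −1.33 regions (exact permutation p = 0.3). Whether the replicate numbers pair the samples was not settled. Same-numbered libraries had correlations of −0.00937 to 0.026 in their deviations from the group means, beside −0.0277 to 0.00836 for other pairs. Correlations this small cannot decide the question. With the replicate number as a block the differences were −3.67 regions and −1505 bases (exact permutation p = 0.25 for both, the smallest that 3 pairs allow). Groups of 3 libraries are too small for a test of single outlying libraries. What depth adds to a missing peak was not tested.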

Other observations

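The control-only region with the highest lowest −log10 q lay 6222 bases from the start of GSTM4, a glutathione transferase gene (chr1:109649546-109649877). It was called in 2 V16D/CTL lists, with folds of 8.05 in replicate 1 and 6.49 in replicate 3. GSTM genes are close copies of each other. CECR2, which encodes a bromodomain protein (chr22:17363644-17364204), had folds of 7.66 and 12.3 in replicates 1 and 2, and KCNN2, a calcium-activated potassium channel gene (chr5:114377549-114378649), 6.72 and 7.73. With SCARF2, these were the 4 regions in which every V16D/CTL peak reached a −log10 q of 10.

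Further control-only promoter regions, each called in 2 lists, are given with the distance to the nearest V16D/H19 peak. SRRM3, a splicing factor of neuronal microexons (chr7:76201394-76201747), had folds of 5.68 and 5.08 in replicates 1 and 2, with that peak 11 bases away. DLG2, a synaptic scaffold gene (chr11:84437229-84437685), had 3.49 and 5.37 in replicates 2 and 3, with the peak 711978 bases away. CRABP1, a retinoic acid binding protein gene (chr15:78340410-78340640), had 5.02 and 6.56 in replicates 1 and 3, with the peak 39609 bases away. ACSL1, a fatty acid activating enzyme (chr4:184813045-184813593), had 4.63 and 6.62 in the same replicates, with the peak 28 bases away. These genes were chosen after their values were seen, and no test was run on them.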
